A study of Mus musculus with 6 samples.

Results

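The Ugt1a cluster was described across 6 RNA-seq libraries of LT-HSCs, the long-term hematopoietic stem cells of mouse bone marrow, from which every blood lineage descends. Its members were the rows whose symbol is Ugt1a1, Ugt1a2, Ugt1a5, Ugt1a6a, Ugt1a6b, Ugt1a7c, Ugt1a8, Ugt1a9 or Ugt1a10, which gave 9 of 47561 rows. The cluster was selected on the counts of Ugt1a7c in these same libraries, which differed between the groups, so the member values below are a description and carry no test. LT-HSCs had been sorted from the bone marrow of control mice, labelled WT, and of mice titled Piezo1 KO, with 3 libraries in each group. Piezo1 encodes an ion channel that stretch of the membrane opens and that lets calcium in. In the genotype field the KO libraries read Piezo1, Piezo2 and Piezo3 knockout in turn, and the groups here follow the titles. The labels used here give no strain, age, sex, deleted exon or Cre driver, and do not say whether a library is 1 mouse or a pool.

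UDP-glucuronosyltransferases of the Ugt1a locus sit in the endoplasmic reticulum and join glucuronic acid to bilirubin, hormones, drugs and other lipid-soluble compounds, which makes them easier to excrete. The locus is best known in liver and gut. Each member has its own promoter and its own first exon, which encodes the part of the enzyme that binds the substrate, and all members splice to one common set of later exons, which encodes the part that binds UDP-glucuronic acid. A read from the common exons therefore does not by itself say which member it came from.

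In the GENCODE M21 models of GRCm38 the members lie on the plus strand of chromosome 1, and 4 coding exons, at chr1:88215044-88218421 with 735 coding bases, were shared by all 9. They make up 45.8% (Ugt1a1) to 46.4% (Ugt1a9) of the coding sequence. The first coding exons run from Ugt1a10, farthest from the shared exons, to Ugt1a1, nearest to them. Those of the 4 members that held counts are at chr1:88095121-88095978 for Ugt1a7c, chr1:88106942-88107799 for Ugt1a6b, chr1:88138474-88139331 for Ugt1a6a and chr1:88200637-88201500 for Ugt1a2. The deposited counts carry no coordinates, and their gene models appear to be later than this annotation, so these positions are those of the reference only.

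**Figure D1:**
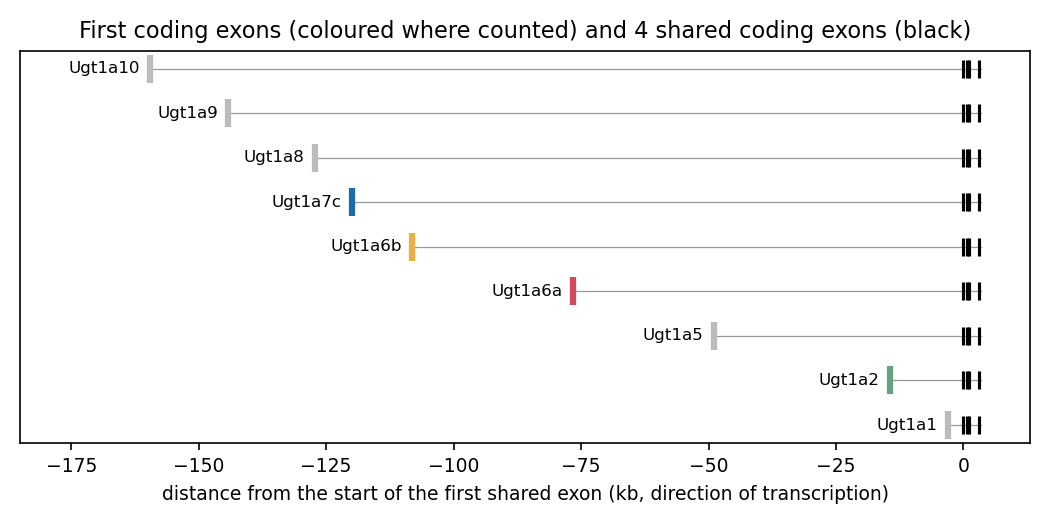
Position of the first coding exon of each of the 9 members (thick ticks) and of the 4 shared coding exons (black ticks), as distance in kb from the start of the first shared exon in the direction of transcription. Coloured ticks mark Ugt1a7c, Ugt1a6b, Ugt1a6a and Ugt1a2, the 4 members with a count in any library, and grey ticks the 5 members with none.

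The splice junction shows bases that tell some of the members apart. Each line gives the last 30 coding bases of the first exon in lower case and the first 30 bases of the shared exon in capitals, read 5′ to 3′ from the GENCODE M21 transcripts (GRCm38, plus strand).
Ugt1a7c: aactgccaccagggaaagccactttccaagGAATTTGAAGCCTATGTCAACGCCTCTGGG
Ugt1a6a: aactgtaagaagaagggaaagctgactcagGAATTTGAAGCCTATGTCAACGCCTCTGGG
Ugt1a6b: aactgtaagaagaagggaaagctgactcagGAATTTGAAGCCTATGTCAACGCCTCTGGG
Ugt1a2: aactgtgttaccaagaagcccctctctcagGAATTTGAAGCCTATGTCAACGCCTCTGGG

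The capitals are the same in all 4 lines, and so are the lower-case bases of Ugt1a6a and Ugt1a6b. The junction of Ugt1a5, not shown, has the same bases as that of Ugt1a2. Over the whole first coding exon, Ugt1a6a and Ugt1a6b were 97% identical, with 26 mismatches. Ugt1a7c was 53.2% identical to Ugt1a6a and 52.4% to Ugt1a2, and 80.2% to 84.1% to its nearest relatives, Ugt1a8, Ugt1a9 and Ugt1a10. Ugt1a2 was 81.4% identical to Ugt1a5. Of the 100-base windows of the coding sequence, 56.2% were found in no other member for Ugt1a7c, 49.9% for Ugt1a2 and 42.1% for Ugt1a6a and for Ugt1a6b. Ugt1a7c and Ugt1a6a thus differ widely within the first exon and not at all within the shared coding exons. Read length, the strand and the treatment of reads that fit several genes are not given in the sources used here.

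Total counts lay between 59435258 and 64653956 per library. CPM below are counts scaled to a common library total after TMM normalization (the trimmed mean of M values), and 3 counts, the floor used for a count of 0, came to 0.0440 to 0.0539 CPM. Such floors and the intervals below cover counting error only. Piezo1 itself overlapped between the groups, with 7.02 to 24.3 CPM in control and 4.28 to 9.46 CPM in KO libraries. Its log2 fold change was -1.15 (SE 0.56, edgeR adjusted p = 0.508). Because of the overlap, the groups are named as labelled. All 10 LT-HSC marker genes looked at had counts in every library, and their summed CPM overlapped between the groups. Slamf1, Mecom, Hlf, Hoxb5, Fgd5, Ctnnal1 and Mllt3 each overlapped, with log2 fold changes from -0.30 (Slamf1) to 0.15 (Hoxb5). Ly6a and Kit did not overlap, where 8.76% of all tested genes did not overlap with lower and 10.7% with higher KO values. Ly6a, the gene of Sca-1, held 324, 373 and 284 CPM in control against 89.2, 207 and 72.8 CPM in KO libraries, without overlap (edgeR adjusted p = 0.297). Kit, the stem cell factor receptor, held 106, 223 and 226 CPM against 323, 293 and 344 CPM, also without overlap and higher in KO (edgeR adjusted p = 0.398). Procr, a further stem cell surface marker, held 67.1, 56.5 and 22.6 CPM against 9.68, 26.7 and 4.99 CPM, with overlap (edgeR adjusted p = 0.397). The part of these differences in the Ugt1a values was not tested.

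Ugt1a7c carried nearly all of the cluster's counts in control LT-HSCs and none in KO LT-HSCs. Its counts were 1021, 1457 and 1276 in control replicates 1, 2 and 3, and 0 in each of the 3 KO libraries. In CPM the control libraries held 16.9, 21.4 and 22.9, an average of 20.4 ± 3.15 (SD, n = 3). The 3 control libraries lay close together and every KO library was at 0, so the groups did not overlap. In bulk RNA of sorted cells, fewer cells with a transcript and less of it per cell cannot be told apart. Against the floor of 3 counts per library, the control mean was at least 412-fold higher, and with 1 control library left out this bound lay between 387-fold and 448-fold. The bound covers counting error only. The 0 counts, this bound and the share limits below may also depend on how reads of the shared exons were assigned, which was not tested. Over the whole table, 8.76% of 16022 tested genes did not overlap in the direction of lower KO values.

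Ugt1a6a, whose human counterpart UGT1A6 acts on small phenols, was counted in every KO library and in 1 control library. Its counts were 203, 51 and 440 in KO replicates 1, 2 and 3, or 3.4, 0.847 and 7.06 CPM. In control they were 0, 25 and 0, or 0.366 CPM in control replicate 2. All 3 KO libraries thus lay above all 3 control libraries, where 10.7% of tested genes did not overlap in that direction. KO libraries averaged 3.77 ± 3.12 CPM and control libraries 0.122 ± 0.212 CPM (SD, n = 3 each), a ratio of 30.9. That ratio rests on control replicate 2: without it the control libraries are at 0, and the KO mean was at least 72.9-fold higher than the floor, while KO replicate 2 stood only 2.31-fold above control replicate 2. The Ugt1a6a counts, its 0 counts in control and these ratios may also depend on how reads of the shared exons were assigned, which was not tested.

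Ugt1a6b, the near copy of Ugt1a6a, had 97 counts (1.42 CPM) in control replicate 2 and 0 in the other 5 libraries. Ugt1a2 had 230 counts (3.82 CPM) in KO replicate 2 and 0 in the other 5. Each of these members was therefore seen in a single library, and neither passed the filter on low counts. Ugt1a1, the enzyme that conjugates bilirubin, and Ugt1a5, Ugt1a8, Ugt1a9 and Ugt1a10 had 0 counts in all 6 libraries. Of the 9 members, Ugt1a7c and Ugt1a6a passed the filter, and each did so through the group in which it was high.

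The share of the cluster held by each member differed from library to library. Ugt1a7c made up 1021 of 1021 cluster counts in control replicate 1 and 1276 of 1276 in control replicate 3. In control replicate 2 it made up 92.3% of 1579 counts (exact 95% binomial interval 90.8% to 93.5%), with 6.14% (5.01% to 7.44%) on Ugt1a6b and 1.58% (1.03% to 2.33%) on Ugt1a6a. Ugt1a6a made up 203 of 203 counts in KO replicate 1 and 440 of 440 in KO replicate 3. In KO replicate 2 it made up 18.1% of 281 counts (13.8% to 23.2%), and Ugt1a2 held the other 81.9% (76.8% to 86.2%). In 4 of the 6 libraries, then, 1 member took every count of a cluster whose members share 735 coding bases. The 0 counts of Ugt1a7c allow a share of up to 1.48%, 1.07% and 0.682% of the cluster in KO replicates 1, 2 and 3.

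**Figure D2:**
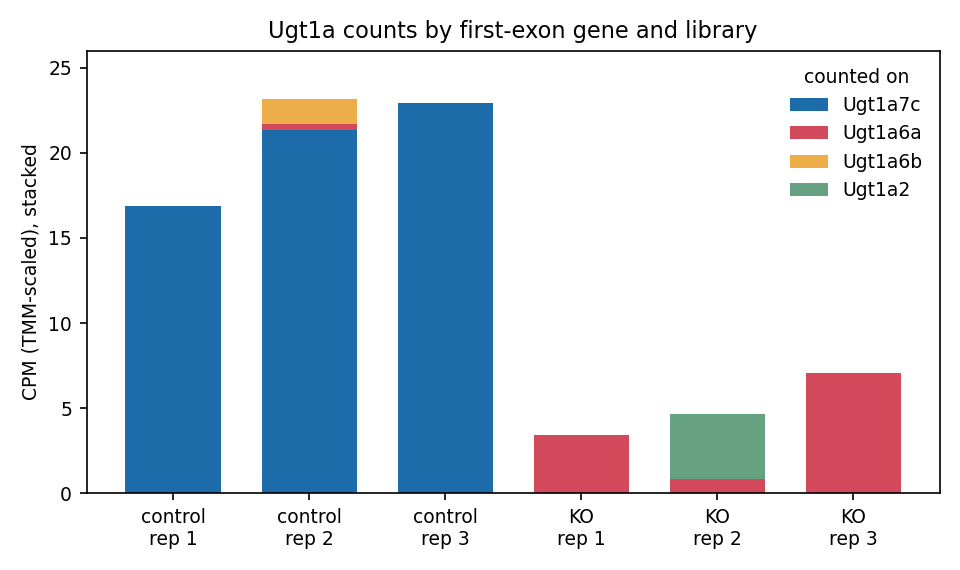
CPM of the 4 counted members stacked by library (bars start at 0, one bar per library, no error). Ugt1a7c fills the 3 control bars up to 16.9, 21.4 and 22.9 CPM and is missing from the 3 KO bars, which hold Ugt1a6a and, in KO replicate 2, Ugt1a2.

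Set per kb of the GENCODE transcript, the order was the same. Ugt1a7c stood at 5.22, 6.61 and 7.10 CPM per kb in the control libraries, and Ugt1a6a at 1.48, 0.369 and 3.07 CPM per kb in the KO libraries. Ugt1a2 reached 1.73 CPM per kb in KO replicate 2, and Ugt1a6b 0.617 CPM per kb in control replicate 2. The Ugt1a7c model is the longest of the 9, at 3231 bases against 2190 to 2303 for the others, so the choice of 3′ end bears on its value.

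The sum over all 9 members does not depend on which member a shared read was given to, and it was also lower in KO libraries. Shared reads that were dropped or counted on other rows would be missing from the sum, and their treatment is not given. It held 1021, 1579 and 1276 counts in control and 203, 281 and 440 in KO libraries. The means were 21.0 ± 3.57 CPM in control and 5.04 ± 1.85 CPM in KO (SD, n = 3 each), a ratio of control to KO of 4.16. The lowest control library stood 2.39-fold above the highest KO library, so the groups did not overlap. The edgeR log2 fold change, KO over control, was -2.06 (SE 0.41). With any 1 library left out the ratio lay between 3.58 and 5.20. The sum thus differed far less than Ugt1a7c alone did.

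Without Ugt1a7c, the cluster went in the other direction. The other 8 members together held 0, 122 and 0 counts in control and 203, 281 and 440 in KO libraries, or 0.596 ± 1.03 CPM and 5.04 ± 1.85 CPM (SD, n = 3 each). The ratio of the means, KO over control, was 8.46, and the log2 fold change was 3.07 (SE 2.1). KO replicate 2 was 2.61-fold above control replicate 2, the 1 control library with such counts. Without that library the KO mean was at least 97.5-fold above the floor. The split between Ugt1a7c and the other members, and so these ratios, may also depend on how shared-exon reads were assigned, which was not tested. Between the group means, KO libraries held 20.4 CPM less on Ugt1a7c and 4.45 CPM more on the other members, a net 15.9 CPM less for the cluster.

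**Figure D3:**
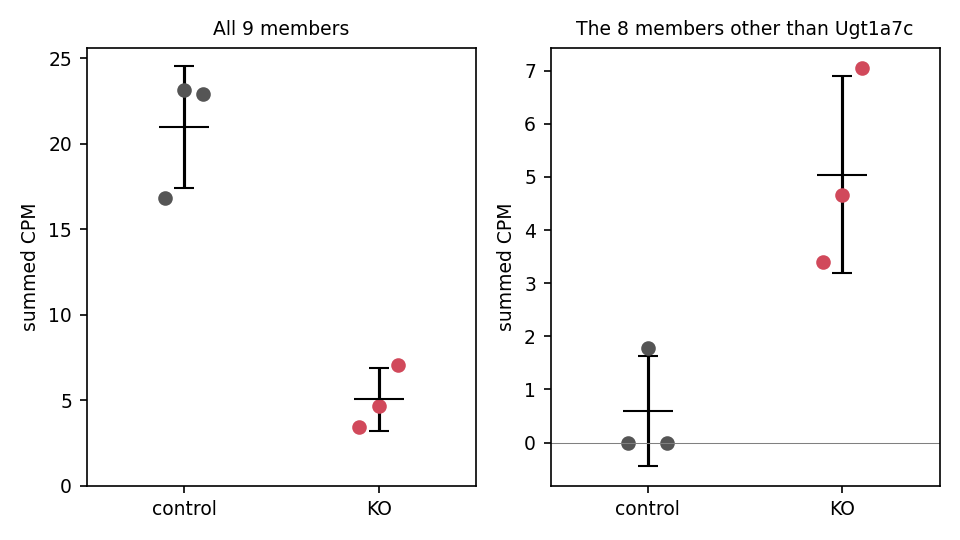
Summed CPM in each library (points) with the mean and SD of 3 libraries (bars) for all 9 members (left) and for the 8 members other than Ugt1a7c (right). On the left the control libraries lie above the KO libraries (means 21.0 and 5.04), and on the right below them (0.596 and 5.04).

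Rows with the patterns of Ugt1a7c and of Ugt1a6a were counted over the table. The cluster was selected on the Ugt1a7c counts, so the rarity of that pattern is a description and carries no test. Ugt1a7c was the only row of 47561 with at least 5 CPM in every control library and 0 counts in all KO libraries, and 0 rows showed the reverse. With the minimum at 1 CPM there were 7 rows in the first direction and 13 in the second. Ranges of like level were then chosen after the values were seen. Of 4440 other rows averaging 10 to 40 CPM in control, 0.743% had 0 counts in at least 1 library, and 1 had 0 in all KO libraries. That was Fcnb, named after its values were seen, which encodes a neutrophil lectin and was counted in control replicate 3 only. Of 3418 rows averaging 2 to 10 CPM in KO, a lower level, 21.2% had 0 counts in at least 1 library. Of the same 3418 rows, 97 shared the pattern of Ugt1a6a, with 0 in exactly 2 control libraries and counts in all 3 KO libraries. The levels and criteria differ between the patterns, so their counts are not set against each other.

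The promoters shown are those of the 2 members that held most of the cluster's counts, Ugt1a7c in control and Ugt1a6a in KO libraries. The counts are per gene, so they do not show which start site was used, and the Ugt1a6a window does not adjoin its first coding exon. Each line is the 250 bases before the RefSeq start on the plus strand of GRCm38.p6, at chr1:88094751-88095000 for Ugt1a7c and chr1:88134559-88134808 for Ugt1a6a.
Ugt1a7c: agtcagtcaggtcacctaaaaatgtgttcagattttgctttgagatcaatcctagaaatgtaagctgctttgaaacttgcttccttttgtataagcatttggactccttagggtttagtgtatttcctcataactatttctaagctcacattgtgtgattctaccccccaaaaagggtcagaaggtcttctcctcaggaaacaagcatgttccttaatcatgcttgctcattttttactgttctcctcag
Ugt1a6a: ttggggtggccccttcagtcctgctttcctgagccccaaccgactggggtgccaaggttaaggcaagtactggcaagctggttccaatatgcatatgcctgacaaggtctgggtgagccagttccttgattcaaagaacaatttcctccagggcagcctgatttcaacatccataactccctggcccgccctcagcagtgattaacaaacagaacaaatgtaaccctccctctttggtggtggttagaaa

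The aryl hydrocarbon receptor (AhR) and Nrf2, encoded by Nfe2l2, are known regulators of Ugt1a genes. Their core motifs, GCGTG for AhR and TGACNNNGC for Nrf2, were searched on both strands, with matches to be set in capitals. RefSeq promoters were at hand for 8 members, all but Ugt1a6b. GCGTG was found in 2 of them, Ugt1a5 and Ugt1a8, against 28.1% of 32817 promoters of the same length, and TGACNNNGC in 0, against 10.2%. The windows of Ugt1a7c and Ugt1a6a held neither, so no capitals appear. A match of one motif can share its GC with a match of the other, which did not occur here. A window without a match says nothing about the factors.

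Genes next to the cluster were measured without the shared exons. Dnajb3, a chaperone gene that lies inside the cluster between the first exons of Ugt1a2 and Ugt1a1, had 6.21, 6.36 and 12 CPM in control against 5.33, 2.87 and 9.61 CPM in KO libraries. The edgeR log2 fold change was -0.47 (SE 0.61, edgeR adjusted p = 0.860). Usp40 and Dgkd, before the cluster, had log2 fold changes of 0.18 (SE 0.25, edgeR adjusted p = 0.871) and 0.65 (SE 0.28, edgeR adjusted p = 0.468). Usp40 encodes a deubiquitinase and Dgkd a diacylglycerol kinase. Hjurp, after the cluster, the chaperone of the centromeric histone, stood at 88.9 to 130 CPM in control and 165 to 186 CPM in KO, with a log2 fold change of 0.62 (SE 0.19, edgeR adjusted p = 0.317). Sag, the gene of retinal arrestin, was at 2.99 CPM or less in every library, with a log2 fold change of 2.76 (SE 2.61, edgeR adjusted p = 0.781). Of 5 tested neighbours 0 passed an adjusted p under 0.05. Hjurp alone had an unadjusted p under 0.05, or 20.0% of the 5 against 11.0% of all tested genes. Leaving Sag out, their log2 fold changes ran from -0.47 to 0.65, where that of the cluster sum was -2.06. Mroh2a, Trpm8, Spp2 and the pseudogenes inside the cluster that have a row held at most 1 count in any library.

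The wider pathway was read from 7 lists of genes, 95 in all, of which 67 were tested. In edgeR 0 passed an adjusted p under 0.05, where 0% of 16022 genes did. With an unadjusted p under 0.05 came 1 gene that was higher and 6 that were lower, or 10.4% of the 67, against 11.0% of all tested genes (5.44% higher and 5.59% lower). The median log2 fold change of the 67 was -0.14, against 0.03 over all tested genes. The share of the pathway at an unadjusted p under 0.05 was thus near the background. In DESeq2 the count was 12, with 1 higher and 11 lower, or 17.9% against 14.2% of all tested genes. The directions over all genes were not counted in DESeq2. Its adjusted threshold was passed by 4 pathway genes (Gclc, Hmox2, Mgst1 and Nfe2l2), or 5.97% against 3.25%. Without control replicate 2, edgeR gave 13 pathway genes, or 19.4% against 12.8% of all tested genes. Without control replicate 3 it gave 11, or 16.4% against 15.5%.

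Outside the cluster, UDP-glycosyltransferase genes held few counts. Of 13 genes of the Ugt2, Ugt3 and Ugt8 families 0 passed the filter on low counts, and 1, Ugt8a, which makes galactosylceramide, had counts at all. Ugt8a held 2.15 and 0.503 CPM in control replicates 2 and 3, 0.116 CPM in KO replicate 2 and 0 in the others.

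The 11 genes that supply UDP-glucuronate or remove glucuronides were all expressed and none differed at an unadjusted p under 0.05, with a median log2 fold change of 0.05. Ugdh, the enzyme that makes UDP-glucuronate, had 17.4 to 21.1 CPM in control and 18.1 to 30.5 CPM in KO libraries. The lowest p was that of Pgm1, a phosphoglucomutase, at a log2 fold change of -0.78 (SE 0.36, edgeR adjusted p = 0.482). Slc35d2, a nucleotide sugar transporter, was at 0.96 (SE 0.53, edgeR adjusted p = 0.568), from low levels of 3.09 to 11.4 CPM. Gusb, the lysosomal β-glucuronidase that takes glucuronic acid off again, was at -0.20 (SE 0.17, edgeR adjusted p = 0.743), and Slc35b1 at -0.32 (SE 0.31, edgeR adjusted p = 0.790).

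The 4 genes on the way from heme to bilirubin, the best-known substrate of the locus, had negative log2 fold changes with a median of -0.58, where 47.8% of all tested genes were negative. Hmox2, the constitutive heme oxygenase, had 185, 208 and 147 CPM in control against 111, 125 and 72.8 CPM in KO. The groups did not overlap, and the log2 fold change was -0.81 (SE 0.24, edgeR adjusted p = 0.320). Hmox1, the inducible enzyme, was at -1.29 (SE 0.68, edgeR adjusted p = 0.542), and its highest value, 31.9 CPM, was in control replicate 2, against 4.09 CPM in the lowest library. The biliverdin reductase genes Blvra and Blvrb were at -0.17 (SE 0.17) and -0.34 (SE 0.36), with edgeR adjusted p-values of 0.795 and 0.813.

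Among 13 tested regulators of Ugt1a transcription, 2 were lower and 0 higher at an unadjusted p under 0.05. That is 15.4%, against 11.0% of all tested genes (5.59% lower and 5.44% higher). The median log2 fold change was 0.36. Nfe2l2 held 140, 145 and 138 CPM in control against 73.5, 81.0 and 86.2 CPM in KO libraries. The control libraries lay close together and above every KO library, where 8.76% of all tested genes did not overlap in that direction. The log2 fold change was -0.81 (SE 0.15, edgeR adjusted p = 0.255, DESeq2 adjusted p = 0.000314). Arnt, the dimer partner of AhR, was at 0.80 (SE 0.38, edgeR adjusted p = 0.507) and Nr3c1, the glucocorticoid receptor, at 0.51 (SE 0.26, edgeR adjusted p = 0.531). Ahr itself varied within both groups, with 0, 9.95 and 3.11 CPM in control against 2.55, 8.45 and 0.770 CPM in KO.

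Of 11 tested targets of AhR and Nrf2, 5 were positive, or 45.5% against 52.2% of all tested genes, with a median of -0.03. Gclc, the catalytic subunit of glutamate-cysteine ligase, stood at 26.5, 22.3 and 42.5 CPM in control against 57.6, 59.5 and 62.6 CPM in KO. This was opposite in direction to the Ugt1a sum, with a log2 fold change of 0.98 (SE 0.28, edgeR adjusted p = 0.306). Nqo1, a quinone reductase often used as a readout of Nrf2, was at -0.62 (SE 0.38, edgeR adjusted p = 0.610), with overlapping groups. Abcc1, an exporter of conjugates, was at 0.47 (SE 0.24, edgeR adjusted p = 0.534). Cyp1a1, the standard AhR target, held 7.25, 4.56 and 0 CPM in control against 0.117, 0 and 0.834 CPM in KO, with overlapping groups (edgeR adjusted p = 0.648).

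Other conjugating enzymes were tested in 23 genes, of which 16 had negative log2 fold changes, or 69.6% against 47.8% of all tested genes, with a median of -0.40. An unadjusted p under 0.05 was reached by 2 lower and 0 higher genes, or 8.70% against 11.0% of all tested genes. Mgst1, a microsomal glutathione transferase, averaged 26.7 CPM in control and 14.0 CPM in KO, with a log2 fold change of -0.94 (SE 0.26, edgeR adjusted p = 0.302). Gsta4, a glutathione transferase for lipid aldehydes, was at -0.83 (SE 0.31, edgeR adjusted p = 0.402). Gstp1 and Gsto1 were at -0.51 (SE 0.22, edgeR adjusted p = 0.460) and -0.40 (SE 0.17, edgeR adjusted p = 0.463). Among 5 tested efflux transporters, Abcg2, the drug pump of the stem cell side population, stood at 111 to 130 CPM in control and 48.8 to 98.6 CPM in KO, at -0.73 (SE 0.27, edgeR adjusted p = 0.394). Abcc5 was at 0.70 (SE 0.32, edgeR adjusted p = 0.484), Abcc4 at 0.27 (SE 0.27, edgeR adjusted p = 0.798) and Abcb1a at 1.34 (SE 1.68, edgeR adjusted p = 0.851).

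**Figure D4:**
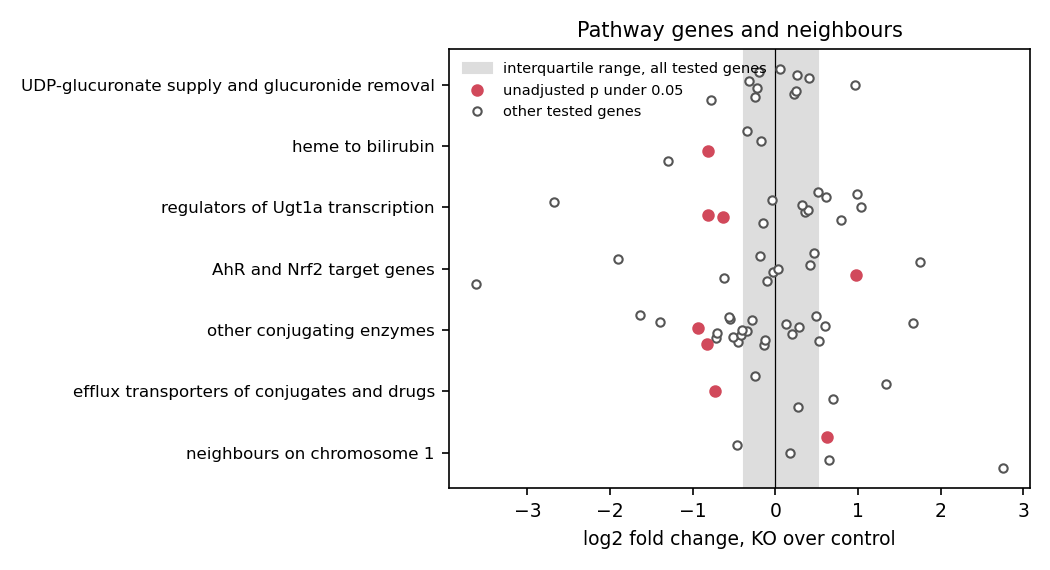
Log2 fold change of KO over control for each tested gene of the pathway lists and of the neighbours (points), with filled points at an unadjusted p under 0.05 and the grey band from the lower to the upper quartile of all tested genes (-0.38 to 0.52). The 7 filled points of the pathway lists are 1 higher and 6 lower, and none passed the adjusted threshold in edgeR.

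Across the 6 libraries, the gene whose log2 CPM followed the cluster sum most closely was Bex6, with a Pearson r of 0.993, ahead of Nfe2l2 (0.984), Vps28 (0.982), Drg2 (0.978) and Gorab (0.973). These are the highest of 9533 genes averaging at least 5 CPM, of which 73 had an r above 0.9. The 6 points are 2 separate groups of 3 libraries, so r mostly measures the gap between the groups. Bex6, of the brain-expressed X-linked family, averaged 11.8 ± 2.42 CPM in control and 3.89 ± 0.822 CPM in KO (SD, n = 3 each). Vps28 belongs to the endosomal sorting machinery and averaged 283 ± 1.6 against 206 ± 16.5 CPM. Drg2, a GTP-binding protein gene, averaged 89.2 ± 13.6 against 52.1 ± 7.39 CPM, and Gorab, of the Golgi, 20.1 ± 1.86 against 9.91 ± 0.466 CPM.

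**Figure D5:**
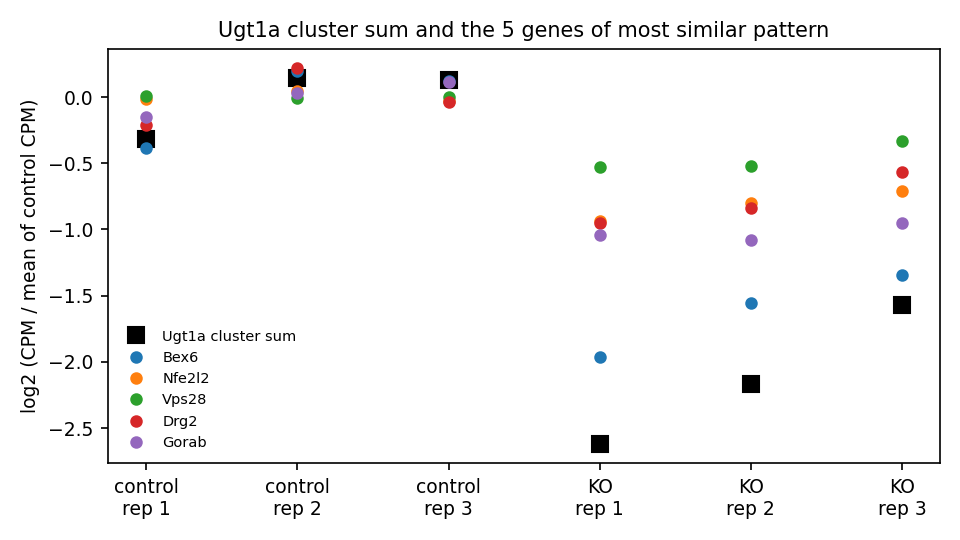
Log2 ratio of the CPM in each library to the mean of the 3 control libraries, for the Ugt1a cluster sum (squares) and the 5 genes with the highest Pearson r to it (circles). All 6 are lower in the 3 KO libraries, and the cluster sum lies lowest there.

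Markers of other cells also differed in level between libraries. The summed CPM of 8 erythroid markers was 463 to 4042 in control and 7171 to 24710 in KO libraries, and that of 7 megakaryocyte and platelet markers 953 to 1242 and 1855 to 2761. Granulocyte markers reached 11720 CPM in control replicate 3, against 120 to 1155 CPM in the other 5 libraries, and macrophage markers overlapped between the groups at 25 to 81.9 CPM. Of 6 T and NK markers, Cd8a and Ncr1 were at 0 in every library, and the sum, nearly all of it Nkg7, was 143 to 213 CPM in control and 253 to 263 CPM in KO. The sum of 5 stroma markers was 1.71 to 5.63 and 6.64 to 10.5 CPM, with Lepr at 0 in every library, and that of 6 B lineage markers overlapped, at 31.1 to 86.5 CPM. The part of these cells in the Ugt1a values was not tested.

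Cells in which the locus is best known left little trace. Of 10 hepatocyte markers, 7, among them Alb, Ttr and Fgb, had 0 counts in every library, and the sum was 0.360 to 2.0 CPM in control and 2.1 to 4.19 CPM in KO. Of 6 enterocyte markers, 5 had 0 counts in every library, and the sum, all of it Lgals4, was 2.96 to 9.46 CPM in control and 3.26 to 4.38 CPM in KO libraries.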

How the data were processed

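Libraries were made with a TruSeq RNA kit from TRIZOL-extracted RNA, per the labels' protocols. Each library has a deposited table of raw whole-number counts per gene (47561 rows). HISAT2 2.1 and featureCounts 1.6.4 are among the tools in the submitters' processing notes, beside bcl2fastq 2.19 and cutadapt 1.16.5 and DESeq2 2.11.40.6. No role or setting is stated for them, and the build named is mm10. Of the rows, 2046 have identifiers starting with STRG, a prefix that transcript assemblers write, so shared reads may have been divided by an assembler. Of 1465 symbols starting with LOC118, 1 is in RefSeq's GRCm38.p6 table, so the gene models appear later than that.

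Genes kept by filterByExpr (16022) were scaled by TMM and fitted with edgeR 4.0.16 (quasi-likelihood, R 4.3.3), KO over control over 6 libraries, with Benjamini-Hochberg adjustment. SE is the absolute log2 fold change over the square root of F. For the sums, member rows were replaced by their sum before fitting. Where a symbol stood on several rows, the row with most counts was used; no member did. Steps were tested on simulated data. Alternatives were other size factors and filters, DESeq2 1.42.0, limma-voom (limma 3.58.1), the replicate number as a block, and each library left out. Every pair of libraries differed beyond sampling noise. The labels do not say that libraries came from separate mice, so p-values measure only the spread between them.

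The members and lists were chosen with earlier results of these data known. Genes were named by rule: the members, Piezo1, up to 4 genes of smallest p per pathway list, 6 neighbours per side, the 5 genes most correlated with the sum, and rows at 0 in one group. Other genes named with values were chosen for their known role. The result of 1 gene of these lists is not reported here.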

Additional observations from a re-analysis of the deposited data

How the results depend on the processing

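The log2 fold change of the cluster sum stayed between -1.86 and -2.39 over the 14 alternatives, with -2.11 under the replicate number as a block. That of the 8 other members stayed positive but is poorly fixed, since control replicates 1 and 3 hold no such counts: it was 6.44 with limma-voom, 7.60 with the replicate block and 2.49 to 11.2 with 1 library left out, the highest without control replicate 2, where the value is set by the prior count. The number of members tested was 1 with at least 1 CPM in 3 libraries and 4 with no filter. The pathway count at an unadjusted p under 0.05 was 12 with DESeq2, 9 with the replicate block and 6 to 13 with 1 library left out, against 7. For all genes it was 1146 (without KO replicate 3) to 2638 with 1 library left out, against 1767. Same-numbered libraries deviated together only weakly (correlations of 0.0380, 0.0160 and 0.0333), though above differently numbered ones (-0.0389 to 0.00788). The labels name no pairs, and the numbers were used as a block only in the alternative fit. The counts limit the detection of members to about 3 counts per library, and the sources used here do not say how shared-exon reads were assigned.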
